A study of Mus musculus with 4 samples.

Results

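Among the cells of lungs bearing mouse KP tumours, 313 of 23730 cells that passed the cell filters carried both Ccr7, the chemokine receptor that guides cells towards lymph nodes, and Fscn1, the actin-bundling protein fascin that builds dendrites. They were chosen by raw counts of unique molecular identifiers (UMIs, one per captured mRNA molecule): at least 200 detected genes, at most 10% mitochondrial UMIs, at least 1 UMI of Ccr7, at least 2 of Fscn1, at most 1 of Cd3d, Cd3e and Cd3g together, and 0 of Cd79a. The T and B cell genes keep Ccr7-positive lymphocytes out. The cells came from 4 single-cell libraries, 1 per group, made with 10x Genomics 3′ chemistry (v2) from live cells sorted from perfused and digested lungs. B6 mice had received KP tumour cells, which are p53-/-, by intravenous injection. In the 2 WT groups the tumour cells had intact Asf1a, and in the 2 KO groups they were Asf1a knockout. Asf1a encodes a histone chaperone. Mice in each pair were given isotype control IgG or anti-PD-1 antibody (clone 29F.1A12) at 200 µg per mouse, 3 times a week for 1 week. The tumour's genotype and the antibody name each library below, and values given in library order run from WT IgG through WT anti-PD-1 and KO IgG to KO anti-PD-1. The knockout lies in the injected tumour cells, so the Ccr7-Fscn1 cells of every group are host cells of the same labelled genotype. The mice's age and sex were not analysed here.

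Dendritic cells take up antigen in a tissue, mature and travel to the draining lymph node, where they prime T cells. On maturation they gain Ccr7, rebuild their cytoskeleton, raise costimulatory molecules, chemokines for T cells and NF-kB target genes, and lower antigen uptake. Cells of this kind in tumours also carry inhibitory molecules such as PD-L1 and have been described as mature dendritic cells enriched in regulatory molecules.

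The members numbered 90, 81, 62 and 80 in library order. Their summed UMIs were 714192, 517695, 300591 and 369505 in that order, and their median UMIs per cell were 7749, 6260, 4570.5 and 4004.5. The 4 libraries held 16078095 to 22506737 UMIs in 6074 to 6683 cells each, and the 2 KO libraries were the shallower ones, with median UMIs over kept cells of 1247 and 1355 against 2061 and 1905. Levels below are the members' summed UMIs of a gene per 1e+06 of their UMIs (CPM). Their 95% intervals are exact and cover counting error only, since UMIs are not independent within a cell and there is 1 library per group. With no replicate libraries no test between groups was possible, and a gene counts as higher or lower when 2 libraries differ by at least 2-fold. Asf1a itself had 9, 8, 4 and 2 UMIs in the members. In cells with epithelial genes (at least 1 UMI of Epcam and 2 of Krt8 and Krt18 together), which could include tumour cells, Asf1a stood at 47.8 CPM in WT IgG, 55.0 in WT anti-PD-1, 14.5 in KO IgG and 7.07 in KO anti-PD-1. These values rest on 5, 4, 2 and 1 UMIs in 11, 7, 13 and 5 cells, and 3′ reads need not cover the edited part of the gene, so they check the labels only weakly.

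The members carried genes of dendritic cells. The 11 shared dendritic cell markers (among them Flt3, Zbtb46, Cd74 and Cst3) summed to 51500 to 56658 CPM in the members, against 1068 to 1507 in T cells of the same libraries. Of the 3 marker genes that the selection did not use (Ccl22, Il4i1 and Il12b), 47 members held all 3, 140 held 2, 92 held 1 and 34 held none. At least 5 of 10 genes of the maturation programme were detected in 306 of 313 members. These genes were chosen with earlier results of these data known and were counted in the members only, so the count is a description. Endothelial and stromal markers summed to 1.40 to 6.65 CPM. T cell markers other than the Cd3 genes summed to 53.2 to 124 CPM (3071 to 4351 in T cells), and B cell markers other than Cd79a to 70.4 to 116. The selection itself limits Cd3 and Cd79a, and the T cells were gated by Cd3 and by few class II UMIs. The contrasts with T cells and the low T and B cell values therefore follow in part from the gates. Genes abundant in neutrophils, macrophages and epithelium were present at levels that differed between libraries. The neutrophil list summed to 1131 CPM in the members of WT IgG, 396 in WT anti-PD-1, 1510.4 in KO IgG and 1042 in KO anti-PD-1, where the T cells of the same libraries had 2371 to 3666. The conventional dendritic cells described below had 862, 1222, 1051 and 578 in library order, so the members were above them in all libraries but WT anti-PD-1. At least 3 UMIs of S100a8, S100a9, Epcam, Krt8, Krt18, C1qa, C1qb and C1qc together were found in 163 of the 313 members (65, 40, 25 and 33 by library). This limit is a raw count, which deeper cells reach more easily, and the members of the WT libraries were the deeper ones. Wherever these members are left out below, depth and the genes of other cell types were not told apart. A doublet caller (Scrublet) marked none of the members at its own threshold, though that threshold called only 3 and 0 cells in the KO libraries.

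At the edge of the selection, 67 cells with Ccr7 and 1 UMI of Fscn1 were left out and 45 cells with exactly 2 were taken in. Those just outside had 492 CPM of Ccl22, 403 of Il4i1 and 310.5 of Cacnb3, a calcium channel subunit gene of mature dendritic cells. Those just inside had 707, 312 and 349. The 632 cells with Ccr7 and no Fscn1 had lower levels of all 3 genes, 137, 66.9 and 27.2. Another 22 cells had Fscn1 without Ccr7, with a median of 19415.5 UMIs and 6.44 CPM of Ccl22. The cells just outside had a median of 4035 UMIs and the members with 3 or more UMIs of Fscn1 one of 5738.

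By share of kept cells, the members made up 1.57% of the WT IgG library (95% Clopper-Pearson interval 1.26 to 1.92), 1.29% of WT anti-PD-1 (1.02 to 1.60), 1.03% of KO IgG (0.790 to 1.32) and 1.41% of KO anti-PD-1 (1.12 to 1.75). KO IgG had the lowest value. The ratio of KO IgG to WT IgG was 0.657 (0.468 to 0.918). It was 0.823 (0.602 to 1.12) for WT anti-PD-1 over WT IgG, 1.37 (0.970 to 1.94) for KO anti-PD-1 over KO IgG and 1.09 (0.793 to 1.51) for KO anti-PD-1 over WT anti-PD-1. The first interval left out 1 and the other 3 held it, but which intervals do so moved with depth and with the cells taken. The KO IgG to WT IgG ratio was 0.892 (0.633 to 1.25) over cells with at least 500 genes, 0.915 (0.650 to 1.28) over cells with at least 1000 UMIs and 0.751 (0.530 to 1.06) with the libraries thinned to 1 depth. Without the 163 members that carried genes of other cell types it was 1.41 (0.827 to 2.45), above 1. That limit is a raw count and took out 65 of 90 members in WT IgG, the deeper library, and 25 of 62 in KO IgG. The part of depth in this ratio was not tested. KO anti-PD-1 over WT anti-PD-1 was 1.47 (1.06 to 2.02) over cells with at least 500 genes. When every cell was thinned to 1000 UMIs and Fscn1 asked for at 1 UMI, the KO IgG to WT IgG ratio was 0.930 (0.607 to 1.41). That thinning left out 619 cells of WT IgG, 982 of WT anti-PD-1, 2227 of KO IgG and 2142 of KO anti-PD-1.

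Conventional dendritic cells were gated for comparison as type 1 (at least 2 UMIs of Xcr1 and Clec9a, the receptors of the cross-presenting subset) and type 2 (Cd209a with class II genes, and without Xcr1, Clec9a, C1q or Siglech). Of all cells in the 3 dendritic cell sets, the members were 53.9% in WT IgG, 50.6% in WT anti-PD-1, 33.9% in KO IgG and 49.1% in KO anti-PD-1. In KO IgG the type 2 gate held 87 cells, against 55, 43 and 58 in the others. Type 1 cells numbered 22, 36, 34 and 25 in library order.

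**Figure D1:**
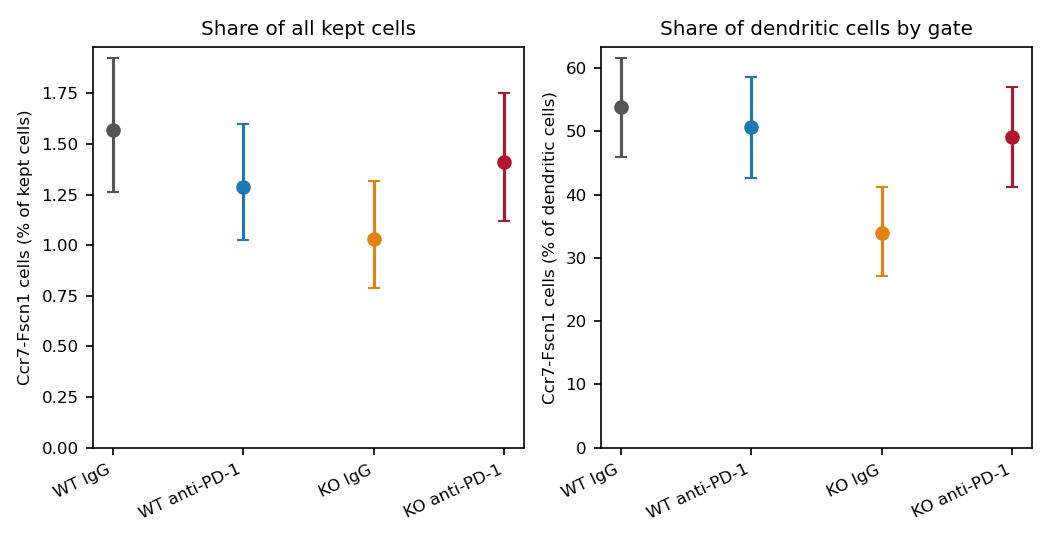
Ccr7-Fscn1 cells as a percentage of all kept cells (left) and of the 3 dendritic cell sets (right) in each library, with exact 95% binomial intervals that cover counting error only. KO IgG has the lowest point in both panels, 1.03% of kept cells and 33.9% of dendritic cells.

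The members were set beside the conventional dendritic cells of the same library, both gates together. Since the members were chosen by their genes, these differences are a description. Of 5473 genes measured in both, 329 (6.01%) were at least 2-fold higher and 338 (6.18%) at least 2-fold lower in the members in every library. Of the 30 genes of the maturation programme, 22 had enough UMIs in the conventional cells for a ratio. Of these, 19 were higher in all 4 libraries and none lower, and their median log2 ratio was 3.91 against -0.09 for all genes. The list was chosen with earlier results of these data known, and some of its genes stand on other lists too.

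Some chemokine and enzyme genes were high in the profile. Of 11 chemokine genes with a ratio, Ccl22, Ccl5 and Cxcl16 were higher in all 4 libraries. Ccl3, Ccl4, Ccl6 and Cxcl9 were lower in all 4. The chemokine list had a median log2 ratio of -1.21, against -0.095 for all genes. Ccl22, the ligand of CCR4 that draws regulatory and helper T cells, stood at 643 CPM in WT IgG, 498 in WT anti-PD-1, 649 in KO IgG and 779 in KO anti-PD-1. In the type 1 gate it was 2.56 to 34.8 and in the type 2 gate 12.6 to 59.3, so the members' summed level was above the gates' in every library. Ccl22 was detected in 74.4%, 65.4%, 53.2% and 62.5% of members, or 50%, 43.8%, 41.7% and 51.4% after each cell was thinned to 2000 UMIs. In T cells, a reference for free RNA with median depths of 1949 to 2636 UMIs, it was detected in 0.417% to 0.754%. Il4i1, a secreted amino acid oxidase that restrains T cells, was at 476, 398, 399 and 428 CPM in library order, with a median log2 ratio over the conventional cells of 5.51 (4.37 to 7.18 over libraries). Ccl5, a chemokine gene whose product recruits T and NK cells, was at 6015, 6104, 5935 and 7453 CPM in the same order. Ccl5 is also a T cell product, at 3344 to 12765 CPM in the T cells of these libraries, but the conventional dendritic cells beside them had 41.7 to 380.5.

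Several genes of the profile were not detected in the gated cells. Nudt17, a nudix hydrolase gene, had 235, 255, 226 and 233 CPM in the members by library and no UMI in either gate. The same held for Slco5a1, a solute carrier gene, with 106, 126, 126 and 73.1 CPM, and for H2-M2, a non-classical class I gene, with 151, 229.9, 119.8 and 233 CPM. Cacnb3 ranged from 335 to 427 CPM and was at 0 in all gates but the type 2 gate of KO anti-PD-1, where it was 9.88. With a count of 0 in the gated cells set to a floor of 3 UMIs per library, the log2 ratio was at least 5.33 in every library for Nudt17, 3.66 for Slco5a1 and 5.07 for H2-M2.

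Socs2, a suppressor of cytokine signalling, was at 284 CPM in WT IgG, 504 in WT anti-PD-1, 359 in KO IgG and 265 in KO anti-PD-1, with a median log2 ratio of 5.29 over the conventional cells. The annexin gene Anxa3 had a median log2 ratio of 5.01, the surface protein gene Tmem123 4.25 and the small GTPase gene Rap2b 4.23. Stat4, which carries the IL-12 signal, had a median of 4.38 (2.97 to 5.63). These 4 genes were higher than in the conventional cells of every library.

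**Figure D2:**
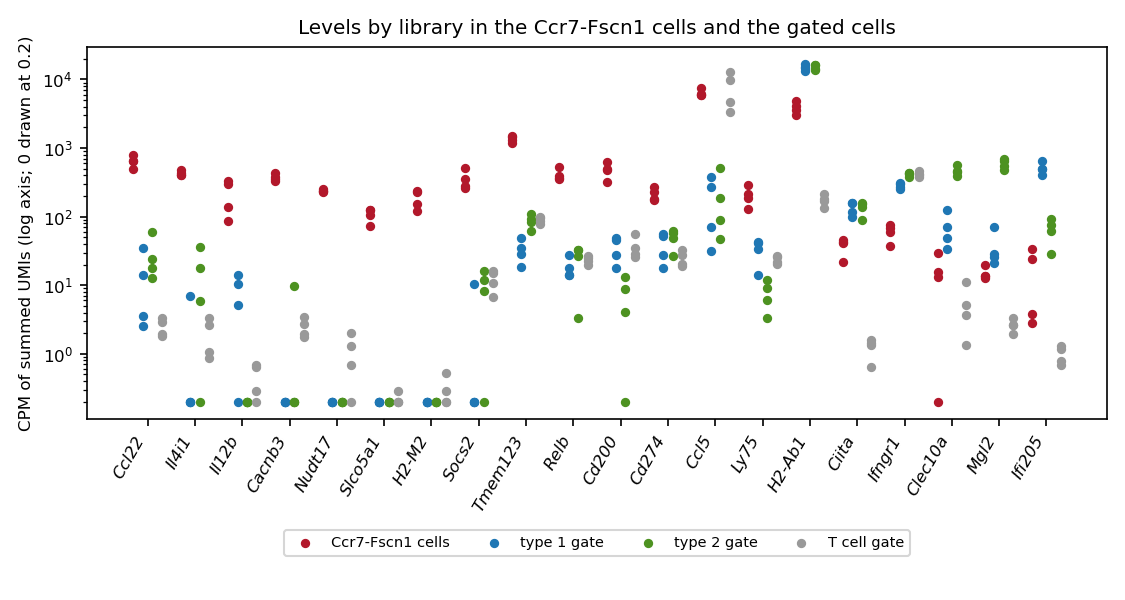
Summed CPM (log axis, values of 0 drawn at 0.2) of 20 genes in the Ccr7-Fscn1 cells, the 2 conventional dendritic cell gates and T cells, 1 point per library. Ccl22 to Ly75 lie above both conventional gates in every library, and H2-Ab1, Ciita and Ifngr1 lie below both.

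NF-kB genes were high in the members, those of the non-canonical arm among them. Of 19 measured genes of the pathway list, 9 were higher in all 4 libraries and none lower, with a median log2 ratio of 1.58. Relb, the partner of p52 in that arm, was at 368, 522, 389 and 355 CPM in library order against 7.70 to 30.8 in the conventional cells. Nfkb2, which encodes the p52 precursor, was at 151, 158, 109.8 and 141 CPM against 25 to 43.6. Map3k14, the kinase NIK that starts the arm, was at 129.9 to 189 CPM against 35.6 to 52.0. Birc2, a ubiquitin ligase gene of the same circuit, was at 306 to 506 CPM against 21.8 to 34.2. Rel was at 781, 738, 719 and 468 CPM against 114 to 212. Nfkb1, which encodes the p50 precursor of the canonical arm, had log2 ratios of -0.37 to -0.14, and Nfkbia, the inhibitor of that arm, a median of 0.16.

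The promoters of this list were searched for NF-kB letters, to show where such sequence lies near the starts of these genes. The motif, GGG followed by any 2 bases and then by TTTCC or TTCCC, was searched in both forms and on both strands in the 250 bases before each RefSeq start (mouse build GRCm38.p6), and a stretch can hold overlapping matches. One or both forms were present in 926 of 32851 promoters (2.82%) and in 879 of 27025 genes (3.25%). In the NF-kB list they were present in 8 of 24 promoters and in 6 of the 17 genes matched by symbol, which are Nfkb2, Nfkbia, Rel, Tank, Tnfaip3 and Tnip1. Of those 6, Nfkb2, Rel and Tank were among the 9 higher genes. In other lists a match was present for 1 of 25 maturation genes (4%), 2 of 15 survival genes and 6 of 11 chemokine genes. None of the 4 promoters of Fscn1, Il4i1, Ccl22 and Il12b held a match in this window. A match is a description of the letters and shows no binding. Printed are 64 bases, 5′ to 3′ on the gene's own strand with matches in capitals, for Nfkb2 at its first start (chr19:46304673-46304736, plus strand) and its second (chr19:46305680-46305743, plus strand), for Rel (chr11:23771023-23771086, minus strand) and Tank (chr2:61593000-61593063, plus strand) as higher genes, and for Nfkbia (chr12:55492648-55492711, minus strand) as a gene that was not.
Nfkb2, first start: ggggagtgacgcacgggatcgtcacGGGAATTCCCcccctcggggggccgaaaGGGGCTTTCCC
Nfkb2, second start: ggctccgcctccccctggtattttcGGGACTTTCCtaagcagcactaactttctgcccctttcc
Rel: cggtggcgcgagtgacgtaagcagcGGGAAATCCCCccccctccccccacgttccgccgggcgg
Tank: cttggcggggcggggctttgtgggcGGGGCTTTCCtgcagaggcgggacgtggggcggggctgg
Nfkbia: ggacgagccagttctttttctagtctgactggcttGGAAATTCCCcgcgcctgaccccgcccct

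Signals to T cells were mixed. Among costimulatory genes, 3 of 9 were higher in all 4 libraries, Cd40, Icosl and Icam1, and Cd48 was lower. Cd40, the receptor for helper T cell signals, was at 130.2, 158, 106 and 217 CPM by library in the members against 16.4 to 46.2 in the conventional cells. Cd86, the CD28 ligand, was at 75.3 to 138 CPM against 117 to 133, so the ranges overlapped. Of the 9 inhibitory ligands and regulators with a ratio, 6 were higher in every library and none lower, with a median log2 ratio of 2.33. Cd274, which encodes PD-L1, was at 179, 228, 273 and 176 CPM in library order, against 27.0 to 58.9 in the conventional cells. Pdcd1lg2, which encodes PD-L2, was at 106, 114, 133 and 124 CPM against 14.1 to 26.2. Cd200, the ligand of an inhibitory receptor on myeloid cells, was at 322, 494, 472 and 628 CPM against 13.7 to 19.3. Il15 and its presenting receptor Il15ra, which together sustain NK and CD8 T cells, were at 43.4 to 75.3 and 83.9 to 108 CPM against 1.19 to 6.42 and 5.13 to 7.70.

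Antigen presentation differed by class. Of 12 class II genes, 7 were lower in the members in all 4 libraries and none higher (median log2 ratio -1.26). H2-Ab1 was at 3575, 2990.2, 4900.4 and 4092 CPM in library order, against 13443 to 16844 in the type 1 gate. The type 2 gate used class II counts, but the type 1 gate did not. Ciita, the class II transactivator, was at 21.7 to 46.4 CPM against 92.4 to 155 in the conventional cells of both gates together. H2-Aa and H2-Eb1 were lower by less than 2-fold, with median log2 ratios of -0.67 and -0.78. Of 16 class I genes, 6 were higher in all 4 libraries and none lower (median 0.77). B2m, the class I light chain, was at 7698, 11165, 7791 and 9158 CPM by library against 2888 to 3965 in the conventional cells.

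Uptake and early-response genes were low. Of 8 antigen uptake and pattern recognition genes with a ratio, 5 were lower in every library and 1, Ly75, was higher. Ly75 encodes the endocytic receptor DEC-205 and was at 214, 286, 189.6 and 129.9 CPM by library against 7.70 to 23.3. The type 2 lectins Clec10a and Mgl2 had median log2 ratios of -4.61 and -4.49, and the type 1 genes Ifi205, Ppt1 and Wdfy4 had -4.72, -4.66 and -4.54. These were the 5 lowest genes by the naming rule, and each is higher in 1 gate than in the other. Of 15 immediate-early and heat-shock genes, 6 were lower in all 4 libraries and none higher. Fos was at 94.7 to 181 CPM in the members and 546 to 751 in the conventional cells. Ifngr1, a chain of the interferon-gamma receptor, was at 36.7 to 76.5 CPM against 346 to 385. Interferon-gamma response genes were mixed, with a median log2 ratio of 0.33. Of 16 with a ratio, 6 were higher in all 4 libraries, among them Irf1 at 2.05 and Gbp2 at 1.74. Another 2, Cxcl9 and Ciita, were lower in all 4.

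The subset of origin was not marked by 1 set of genes. Irf8, needed for type 1 cells, was at 501, 437, 339 and 482 CPM by library in the members, between the 935 to 1219 of the type 1 gate and the 30.5 to 69.2 of the type 2 gate. Batf3, a partner of Irf8, was at 277, 299, 346 and 292 CPM, above both gates in every library. Survival genes were mostly high, with 8 of 15 higher in all 4 libraries and none lower. Bcl2a1b, an anti-apoptotic gene with near-identical copies among which reads can be split, was at 2409 to 2619.7 CPM against 703 to 942. In the migration and cytoskeleton list, 9 of 20 genes were higher and 1, Itgb7, was lower. Marcks, an actin-linked membrane protein gene, was at 955 to 1188 CPM against 181 to 246.

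**Figure D3:**
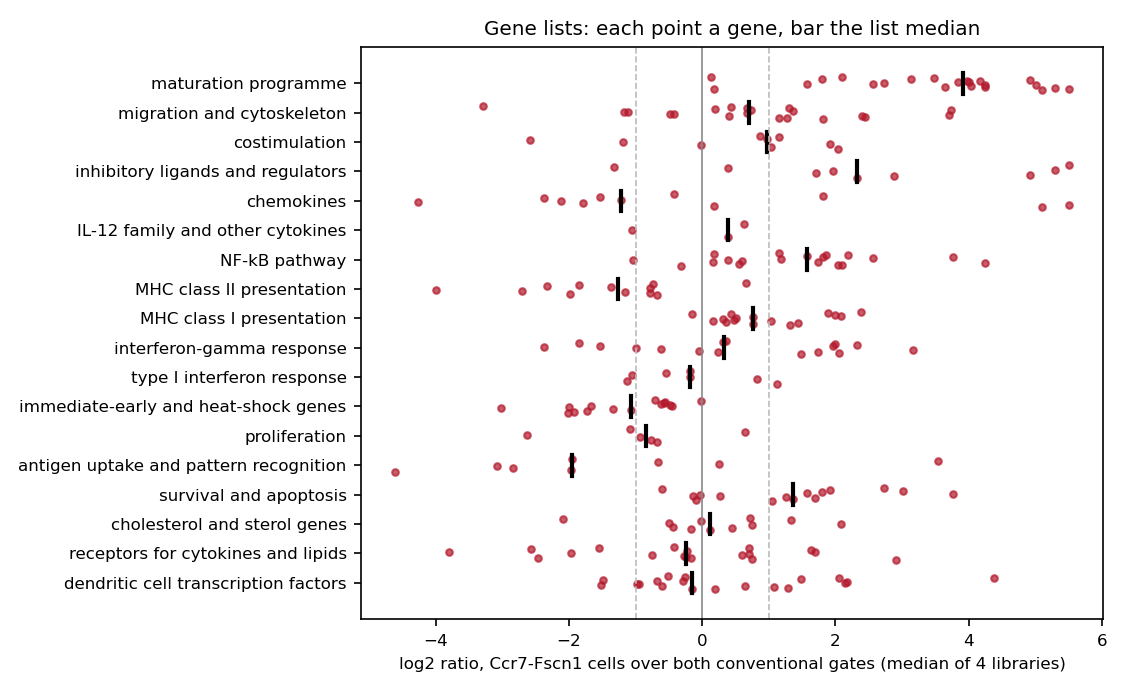
Log2 ratio of the Ccr7-Fscn1 cells over both conventional gates, as the median of the 4 libraries, for the genes of 18 lists (points) with each list's median (bar) and dashed lines at 2-fold. The maturation list has the highest median, 3.91, and the antigen uptake list the lowest, -1.96.

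Within the members, Il12b and Ccl17 were the most uneven of the marker genes. Il12b, which encodes the p40 chain shared by IL-12 and IL-23, was detected in 84 of 313 members, 37 in WT IgG, 20 in WT anti-PD-1, 8 in KO IgG and 19 in KO anti-PD-1. The 5 cells with most Il12b in a library held 60.9%, 54.5%, 92.7% and 75.2% of its UMIs in that order. Ccl17, the other CCR4 ligand, was detected in 192 members, and the 5 highest cells held 47.8% to 58.4% of its UMIs. Ccl5 was spread more evenly, with 21.4% to 36.9% in the 5 highest cells.

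Members with and without Il12b were compared as a description, since the split uses the same cells. Those with it had median UMIs of 6659 against 5355. Summed over the libraries, Irf8 was at 747 CPM with Il12b and 325 without. Cd81 was at 181 and 46.9, Bcl2l14 at 275 and 84.8, Cd40 at 234 and 114, and Scin, an actin-severing protein gene, at 184 and 73.4. Each of these 5 genes was higher in the cells with Il12b in 4 of 4 libraries. H2-M2 went the other way, at 105 CPM with Il12b and 218 without, and was higher in the cells with Il12b in 0 of 4 libraries.

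Members with Ccl17 had a median of 5993.5 UMIs against 4832 in those without. Ccl22 was at 872 CPM in the members with Ccl17 and 201 in those without. Cd44, a hyaluronan receptor gene, was at 125 and 74.7, and Il4i1 at 488 and 335. All 3 genes were higher with Ccl17 in 4 of 4 libraries, whereas Batf3, at 264 and 356 CPM, was higher with it in 0 of 4. Over single cells, the log CPM of Ccl17 and Ccl22 had Spearman coefficients of 0.62, 0.40, 0.64 and 0.43 in library order, where the cells of a library share its depth and its free RNA. Il12b was detected in 27.1% of the 192 members with Ccl17 and in 26.4% of the 121 without, but the direction differed between libraries. These shares were 43.1% and 37.5% in WT IgG and 17.5% and 31.7% in WT anti-PD-1. They were 18.6% and 0% in KO IgG and 23.5% and 24.1% in KO anti-PD-1.

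Across the groups, most genes of the profile were at like levels, and the clearest spread was in Il12b, Ccl17 and Apol7c. For KO IgG over WT IgG, 4245 genes had at least 20 UMIs in the 2 libraries, of which 123 (2.9%) were at least 2-fold higher and 191 (4.5%) at least 2-fold lower. Without the members that carried genes of other cell types the counts were 96 and 55 of 1726 genes, so the larger side turned. Of the 30 genes of the maturation programme, 1 was higher, Ccl17, and 2 were lower, Il12b and Apol7c. Ccl17 was at 1634 CPM in WT IgG, 853.8 in WT anti-PD-1, 3589.6 in KO IgG and 3421 in KO anti-PD-1. The 2 KO libraries were above both WT libraries. The log2 ratio was 1.14 (1.01 to 1.26) for KO IgG over WT IgG and 2.0 (1.84 to 2.16) for KO anti-PD-1 over WT anti-PD-1. As a mean of the cells' own CPM, the log2 ratios were 0.86 and 1.43. In the type 2 gate Ccl17 was also highest in KO IgG, at 4491 CPM against 1951, 1521 and 1900.4 in WT IgG, WT anti-PD-1 and KO anti-PD-1. Without the 163 members that carried genes of other cell types, the Ccl17 ratio of KO IgG over WT IgG was 0.08 on the log2 scale.

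Il12b was at 333 CPM in WT IgG, 85.0 in WT anti-PD-1, 136 in KO IgG and 295 in KO anti-PD-1, from 238, 44, 41 and 109 UMIs. WT anti-PD-1 and KO IgG were low and the other two high. Its log2 ratio was -1.29 (-1.80 to -0.81) for KO IgG over WT IgG, -1.97 (-2.47 to -1.5) for WT anti-PD-1 over WT IgG, 1.11 (0.58 to 1.67) for KO anti-PD-1 over KO IgG and 1.80 (1.28 to 2.33) for KO anti-PD-1 over WT anti-PD-1. The first 2 share the WT IgG library, and each of the other libraries also enters 2 of the 4 ratios. The share of members with an Il12b UMI was 41.1%, 24.7%, 12.9% and 23.8%, and 26.1%, 13.8%, 10.0% and 18.1% after thinning to 2000 UMIs, while in T cells it was at most 0.151%. A single cell held 24.8%, 18.2%, 39.0% and 44.0% of the Il12b UMIs in library order. Without the members that carried genes of other cell types, the 4 log2 ratios of Il12b were -0.13, -0.77, -0.10 and 0.54, so the third changed sign.

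Apol7c, an apolipoprotein L gene of mature dendritic cells, was at 168, 160.3, 49.9 and 165.1 CPM in library order. KO IgG alone was low, on 15 UMIs in 8 cells. The log2 ratio of Apol7c was -1.75 (-2.63 to -0.97) for KO IgG over WT IgG and 1.73 (0.89 to 2.65) for KO anti-PD-1 over KO IgG. Without the members that carried genes of other cell types these ratios were -1.37 and 1.67.

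**Figure D4:**
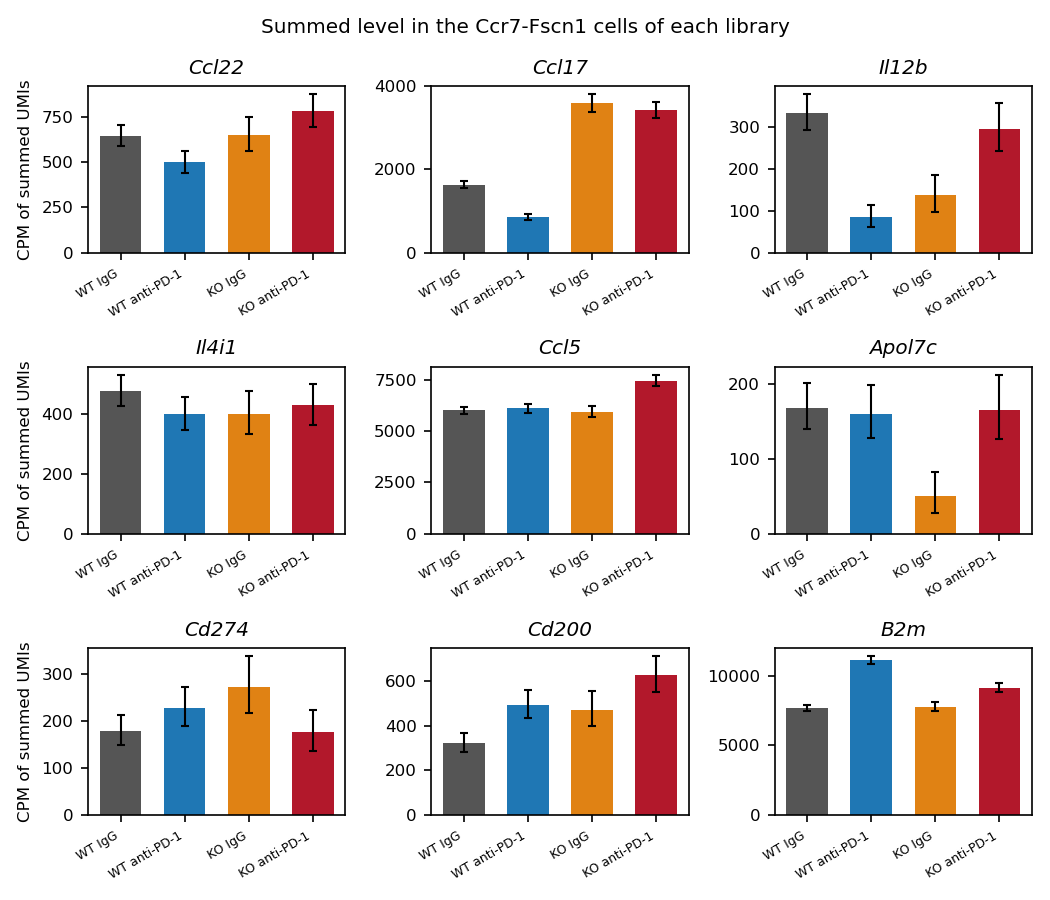
Summed CPM of 9 genes in the Ccr7-Fscn1 cells of each library, with exact 95% Poisson intervals that cover counting error only. Ccl17 is highest in the 2 KO libraries, Il12b is lowest in WT anti-PD-1 and KO IgG, Apol7c is lowest in KO IgG and B2m is highest in WT anti-PD-1.

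Of the other lists in KO IgG over WT IgG, the inhibitory ligands had 8 of 10 genes above a log2 ratio of 0 and none past 2-fold (median 0.40, against 0.03 for all genes). Cd274 and Cd200 had log2 ratios of 0.61 (0.19 to 1.02) and 0.55 (0.24 to 0.86). Cxcr4, the receptor for CXCL12, was at 33.3 CPM in KO IgG against 78.4 in WT IgG. Gbp5, an interferon-induced GTPase gene, was at 96.5 against 46.2. The 5 highest genes of this comparison by the naming rule were Mtf2, Stxbp6, Bag6, Smarcc1 and Acsl4, with log2 ratios of 2.75, 2.68, 2.25, 2.04 and 1.96. Each rested on 17 to 27 UMIs in KO IgG and 6 to 11 in WT IgG, so the intervals were wide (1.34 to 4.38 for Mtf2, a Polycomb-associated protein gene). Among the lowest, Selenop, Pcf11, Klhl5 and Tmem5 had 1 UMI each in KO IgG. A single cell held 69.7% of the Selenop UMIs of WT IgG. The log2 ratio of Selenop was -3.80, and -0.50 without the highest cell of each library.

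For WT anti-PD-1 over WT IgG, 109 of 4673 genes (2.33%) were at least 2-fold higher and 209 (4.47%) at least 2-fold lower. These counts also turned without the members that carried genes of other cell types, to 136 and 72 of 2092 genes. Class I genes lay slightly higher in WT anti-PD-1, with 15 of 16 above a log2 ratio of 0, none past 2-fold and a median of 0.39 against 0.00 for all genes. B2m had a log2 ratio of 0.54 (0.48 to 0.59) and H2-K1 of 0.39 (0.29 to 0.50). Type I interferon genes had 7 of 8 above 0 (median 0.49), with Isg15, an antiviral ubiquitin-like protein gene, at 207 CPM against 125. In the maturation programme 24 of 30 genes were above 0 and only Il12b was past 2-fold, on the lower side. Socs2 had a log2 ratio of 0.83 (0.56 to 1.10) and Il15 of 0.80 (0.08 to 1.52).

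Among chemokine genes, 2 of 11 were at least 2-fold lower in WT anti-PD-1 than in WT IgG, Ccl4 and Cxcl2, and 1, Cxcl10, was higher on 14 UMIs against 8. Cxcl2, a neutrophil-attracting chemokine gene, was at 354 CPM in WT IgG, 81.1 in WT anti-PD-1, 379 in KO IgG and 341 in KO anti-PD-1, so WT anti-PD-1 alone was low. Il1b, which encodes interleukin 1 beta, was at 1429.6, 556, 732 and 834 CPM in the same order, so WT IgG alone was high. Cebpb, a transcription factor gene of inflammatory myeloid cells, was at 168, 54.1, 123 and 254 CPM. The log2 ratio of WT anti-PD-1 over WT IgG was -2.13 (-2.63 to -1.65) for Cxcl2, -1.36 (-1.56 to -1.17) for Il1b and -1.64 (-2.28 to -1.03) for Cebpb. Neutrophil markers moved with them: S100a8, S100a9, Retnlg and G0s2, the 4 of 10 that had enough UMIs, were all lower in WT anti-PD-1 (list median -1.67), as were the macrophage markers C1qb and Apoe. The part of those cells in the result was not tested. Without the members that carried such genes the ratios were -1.16 for Cxcl2 and -1.79 for Il1b. They were -0.73 for S100a9 and 0.32 for S100a8. Both S100 genes helped to define the members left out, so their values follow in part from that.

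Genes of cytotoxic cells were among the highest in WT anti-PD-1 over WT IgG. Nkg7, a granule protein gene, was at 71.5 CPM against 15.4, and Gzma, which encodes granzyme A, at 48.3 against 8.40. The NK cell list summed to 143 to 271 CPM in the members of the 4 libraries and to 2141 to 3733 in T cells. A single member held 56.0% of the Gzma UMIs of WT anti-PD-1. Rdm1, Tmem63b and Vps54 were the other 3 named on the higher side. On the lower side were Bnip3, Hk2, Scgb1a1, Ms4a6c and Ctsl, and 1 cell held 81.8% of the Bnip3 UMIs of WT IgG. Part of this list is known from epithelium (Scgb1a1, a club cell secretory protein gene) and macrophages (Ctsl, a lysosomal protease gene), whose part in the result was not tested.

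For KO anti-PD-1 over KO IgG, 141 of 3257 genes (4.33%) were at least 2-fold higher and 158 (4.85%) at least 2-fold lower. In the maturation programme 3 of 30 were higher, Il12b, Apol7c and Bcl2l14, and none lower. Bcl2l14, a gene of the Bcl-2 family, was at 130.2, 160.3, 89.8 and 187 CPM in library order. Cd40 had a log2 ratio of 1.02 (0.42 to 1.66) and H2-M2 of 0.96 (0.38 to 1.56). Gpr183, the oxysterol receptor that positions dendritic cells, was at 174, 178, 219.6 and 81.2 CPM in the same order. KO anti-PD-1 had the lowest level of Gpr183, with a log2 ratio of -1.44 (-2.11 to -0.79) to KO IgG. Without the members that carried genes of other cell types, the ratio of Gpr183 was -0.55 to KO IgG and 0.14 to WT anti-PD-1.

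Of 18 proliferation genes 4 had enough UMIs, all above 0 in KO anti-PD-1 over KO IgG (median 1.08) and over WT anti-PD-1 (median 1.33), and Pcna and Stmn1 were past 2-fold in both. The filter takes the UMIs of both libraries together, so a gene can pass it through the library where it is high. Stmn1 had 42 UMIs in KO anti-PD-1, 4 in KO IgG and 4 in WT anti-PD-1. The direction of this list can therefore follow in part from the filter. Pcna, a replication clamp gene, was at 43.4, 23.2, 26.6 and 78.5 CPM in library order. Among the 5 named genes on the higher side, Scgb1a1, Ccl4, Prkar2a, Stmn1 and H2afx, single cells held 82.4% of the Ccl4 UMIs and 57.1% of the Stmn1 UMIs of KO anti-PD-1. Scgb1a1 was at 71.4, 5.795, 13.3 and 176 CPM in the members in library order. Among T cells it was at 10254 CPM in KO anti-PD-1 and at most 61.7 in the other libraries. On the lower side were Usp7, Gm42418, Lmo4, Erbin and Cdkn1b. Gm42418, a transcript that overlaps ribosomal RNA, was at 1717, 975.5, 1660.1 and 211 CPM in the members, and KO anti-PD-1 was also the lowest for it in the conventional cells (114 CPM) and T cells (311 CPM).

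For KO anti-PD-1 over WT anti-PD-1, 190 of 3827 genes (4.96%) were at least 2-fold higher and 207 (5.41%) at least 2-fold lower. All 10 measured chemokine genes were above a log2 ratio of 0, and 5 were at least 2-fold higher, Ccl17, Ccl3, Ccl4, Ccl9 and Cxcl2 (list median 0.94). Cxcl2 had a log2 ratio of 2.07 (1.56 to 2.61), Ccl22 of 0.65 (0.40 to 0.89) and Ccl5 of 0.29 (0.21 to 0.36). Of the 5, 3 did not stay past 2-fold under other counts. Without the 1 cell with most of each gene, Ccl3 was at -0.96, Ccl4 at 0.68 and Ccl9 at 0.91. As means over cells Ccl3 was at -0.25 and Ccl9 at 0.40, and the list median was 0.41. The 4 measured neutrophil markers were at least 2-fold higher as well (list median 1.56), of which S100a8, S100a9 and G0s2 were at 0.80, 0.95 and 0.70 without their highest cell. S100a8 was at -0.038 without the members that carried genes of other cell types, a set that S100a8 itself helped to define. Without the members that carried genes of other cell types, the log2 ratios were 1.65 for Ccl17 and 1.53 for Cxcl2.

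NF-kB genes and class I genes leaned the other way in KO anti-PD-1 over WT anti-PD-1. Of 19 NF-kB genes 15 were below 0, none past 2-fold (median -0.30 against 0.00 for all genes), with Rel at -0.66 (-0.92 to -0.39). Of 15 class I genes 14 were below 0 (median -0.21). Stat4 was at 340.2, 406, 333 and 181 CPM in library order. KO anti-PD-1 alone was low for Stat4, with a log2 ratio of -1.16 (-1.58 to -0.76). Ly75 had a log2 ratio of -1.14 (-1.64 to -0.66) and Socs2 of -0.93 (-1.28 to -0.59). Apart from Scgb1a1 and Stmn1, the genes named on the higher side were Tgfbi, Mtfr1l and Fcgr2b, and on the lower side Crnkl1, Dhx57, Rock2, Ubxn2a and Mndal. Single cells held 73.7% of the Tgfbi UMIs and 72.2% of the Fcgr2b UMIs of KO anti-PD-1. Rock2, a kinase gene of the contractile cytoskeleton, was at 71.5 CPM in WT anti-PD-1 and 13.5 in KO anti-PD-1.

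**Figure D5:**
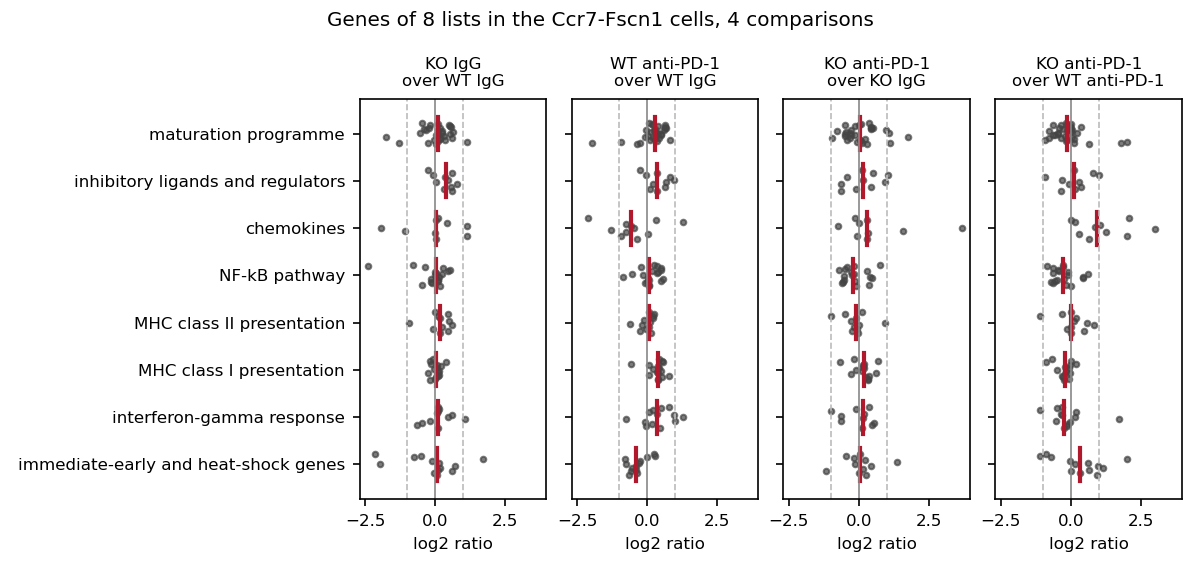
Log2 ratios of the measured genes of 8 lists (points) and the list medians (bars) in the Ccr7-Fscn1 cells for 4 comparisons of 2 libraries each, with dashed lines at 2-fold. The comparisons share libraries. Chemokines have a median of 0.94 in KO anti-PD-1 over WT anti-PD-1, and class I genes one of 0.39 in WT anti-PD-1 over WT IgG.

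Levels that differed little between groups included most of the profile. Il4i1 had log2 ratios of -0.25, -0.26, 0.10 and 0.10 in the order of the comparisons above. The interval from WT anti-PD-1 over WT IgG left out 0 by a small margin, and the other 3 held it. Of the class II genes, none was past 2-fold in the first 3 comparisons and 1, Ciita, was lower in the last.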

How the data were processed

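The deposited values were raw UMI counts per gene and cell, which per the file headers came from Cell Ranger software version 3.0.0, run by the authors. Build hg19 is named in the submitters' processing notes beside bcl2fastq, but all 31053 gene IDs are mouse IDs. The alignment settings are not given in the sources used here. One barcode list was used, which has the length of the WT IgG matrix only, so barcodes shared between libraries were not analysed here.

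Members were found by the counts given above, and 35 symbols shared by more than 1 gene ID were left out. Member UMIs were summed per library and scaled to 1e+06. Intervals are exact at 95% (Poisson, Clopper-Pearson or conditional binomial). Ratios were computed for genes with at least 20 UMIs in 2 libraries, a count of 0 being set to a floor of 3 UMIs per library, and the genes of the selection were left out. The code was tested on simulated data with known ratios. With 1 library per group no p-value was computed, and groups are compared as single libraries whose preparation and treatment cannot be told apart. Depth was 300591 to 714192 member UMIs per library.

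The members, the 18 gene lists and the 16 marker lists were chosen with earlier results of these data known. Named genes were the list genes with most UMIs or past 2-fold, the 5 highest and 5 lowest ratios per comparison with at least 5 member cells and an interval without 1, and the 10 highest and 5 lowest against the conventional gates. A few genes that the rule names are not reported here. The genes shown for cells with and without Il12b or Ccl17 were chosen after their values were seen. Alternatives were other filters, thinning, scaling by edgeR's TMM (4.0.16, R 4.3.3), means over cells, and members left out. Doublets were scored with Scrublet in scanpy 1.11.5 and no cell was removed. Its threshold called 75, 98, 3 and 0 cells by library, and at a score of 0.25 it marked 370 kept cells, 2 of them members. Python 3.11.15, numpy 2.4.6, scipy 1.17.1, pandas 2.3.3 and matplotlib 3.10.9 were used.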

Additional observations from a re-analysis of the deposited data

How the results depend on the processing

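No paired analysis was possible because each group is 1 library and the libraries carry no replicate numbers; no replicate could be left out. Of the share ratios, 40 values under alternatives lay inside the counting interval of the value reported, 3 moved outside it and 1 reversed. The 40 were not all close to the reported value. KO anti-PD-1 over WT anti-PD-1 went from 1.09 as reported to 1.5 over cells with at least 1000 UMIs. Among the 40, the values' own intervals crossed 1 differently. KO IgG over WT IgG held 1 at 500 genes (0.892, 0.633 to 1.25) and at 1000 UMIs (0.915, 0.650 to 1.28). The same ratio held 1 with libraries thinned (0.751, 0.530 to 1.06). KO anti-PD-1 over WT anti-PD-1 left it out at 500 genes (1.47, 1.06 to 2.02) and 1000 UMIs (1.5, 1.09 to 2.07). KO anti-PD-1 over KO IgG left it out with Fscn1 at 1 UMI (1.47, 1.08 to 2.01), with Ccr7 at 2 (1.42, 1.001 to 2.03), among dendritic cells (1.45, 1.03 to 2.05) and with cells thinned to 1000 UMIs (1.70, 1.13 to 2.59). With cells thinned to 1000 UMIs, KO IgG over WT IgG was 0.930 and KO anti-PD-1 over WT anti-PD-1 1.58. Without members carrying genes of other cell types, KO IgG over WT IgG reversed to 1.41 and WT anti-PD-1 over WT IgG was 1.5. Those members were found by a raw count, which deeper cells reach more easily, so depth enters this setting too. Counts of genes at least 2-fold higher and lower are given in the order KO IgG over WT IgG, WT anti-PD-1 over WT IgG, KO anti-PD-1 over KO IgG, KO anti-PD-1 over WT anti-PD-1. They were 11 and 33, 13 and 38, 25 and 23, and 42 and 45 at a filter of 50 UMIs, which tests fewer genes. With no filter beyond 1 UMI they were 593 and 806, 528 and 914, 795 and 848, and 837 and 721. With cells thinned to 2000 UMIs they were 60 and 66, 58 and 61, 66 and 74, and 78 and 86. Without each gene's highest cell 310 were lower in KO IgG over WT IgG. Without members carrying genes of other cell types, they were 96 and 55, 136 and 72, 86 and 96, and 89 and 122, so the larger side turned in the first and the second. Reversed log2 ratios without the highest cell were Klk1 1.24 in the first and 0.46 in the second, and Ccl3 -0.61 and -0.96 in the third and the fourth. Ccl3 was -0.25 in the fourth as a mean over cells. Without members carrying genes of other cell types, S100a8 was 0.32 in the second, Il12b -0.10 in the third, and Gpr183 0.14, Clec4n -0.72 and S100a8 -0.038 in the fourth. S100a8 is one of the genes by which those members were left out, so its values follow in part from that. Where no construction is named, the cause was not tested. Of gene ratios under alternatives, 1101 lay inside the counting interval of the reported ratio, 75 moved outside it and 10 reversed. Klhl5 in KO IgG over WT IgG, at -3.14 as reported and -1.41 without its highest cell, counts as inside. Of list medians, 598 stayed within 0.1 of the reported value on the log2 scale and 194 moved further. Of the counts of genes past 2-fold, 57 stayed within a factor of 1.5 and 31 did not. Depth limits the genes with few UMIs: KO IgG members held 300591.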
